A study of Mus musculus with 16 samples.

Results

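The 7 genes C4b, C3, C1qa, C1qb, C1qc, C1ql3 and Csmd1 were taken by name from a table of 19999 genes, and all 7 had a row in every mouse. C1qa, C1qb, C1qc, C4b and C3 encode components of the complement cascade. C1ql3 and Csmd1 do not encode components: C1ql3 is a secreted synaptic protein that shares the globular domain of C1q, and Csmd1 is a membrane protein with complement control repeats that inhibits complement activation.

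In the classical pathway the hexameric C1q molecule, built from the A, B and C chains encoded by C1qa, C1qb and C1qc, binds a surface and starts the cleavage of C4, and the resulting convertase cleaves C3, whose fragments tag the surface for uptake by phagocytes. In the brain C1q is made mainly by microglia, C4 and C3 are made largely by astrocytes and other non-neuronal cells, and the cascade is known for tagging synapses that microglia then remove. Reactive astrocytes and mouse models of amyloid deposition are known for raised C4b.

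Single nuclei were sequenced from the medial prefrontal cortex of 16 male mice, 22 weeks old, in 4 groups of 4 mice. WT controls and 3xTg-AD controls breathed air and were injected with pyrazole, an inhibitor of alcohol dehydrogenase, whereas WT alcohol and 3xTg-AD alcohol mice received pyrazole together with ethanol and breathed ethanol vapor in repeated intermittent cycles, so that pyrazole was common to all 4 groups. 3xTg-AD mice carry transgenes for human amyloid precursor protein with the Swedish mutation and for mutant human tau, both under a neuronal Thy1 promoter, and a mutant presenilin knocked into the mouse gene. They are on a B6;129 background, and the WT mice were B6;129 mice, so the transgenes cannot be told apart from other differences between the strains. Per the paper, the mice were tested in a water maze after the last vapor exposure. Tissue was taken days after that testing, so the alcohol groups were sampled in withdrawal and not under exposure. Only male mice were sampled, and each mouse gave 1 library.

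The files held 114512 nuclei and between 9622031 and 17544364 unique molecular identifiers (UMIs) per mouse. Clusters were named from marker genes that did not include the 7 genes. This gave 21 types with 66798 nuclei, called X-like here, and left 47714 nuclei (41.7%) unnamed. Many of the unnamed nuclei had fewer UMIs or no clear markers. Others had raised markers, such as cluster 4, with 7265 nuclei and all 11 astrocyte markers raised, which is not part of the astrocyte-like nuclei below. Counts were summed per mouse and type, levels are in counts-per-million (CPM) with library sizes scaled by the trimmed mean of M-values, and 17 types had enough nuclei to be compared. In the deposited table a gene that was above 0 in a mouse was above 0 in at least 5 of its nuclei, so a value of 0 may stand for a gene seen in up to 4 nuclei. Of the barcodes, 1694 occurred in more than 1 library (3400 nuclei). WT controls 26 and 27 and 3xTg-AD control 12 stood apart by the ribosomal RNA-associated transcript Gm42418, at 17914 to 29047 CPM against 2059 to 4249 CPM in the other mice. Gm42418 also moved with the groups, at 2059 to 3232 CPM in 3xTg-AD alcohol mice, 2495 to 3912 CPM in WT alcohol mice and 3477 CPM or more in every control. Microglia-like nuclei made up 2.74 to 5.49% of the nuclei in 3xTg-AD alcohol mice and 1.29 to 3.48% in the other mice.

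The complement genes divided by cell type (the heat map of levels by type). C4b was highest in astrocyte-like nuclei, at 104 ± 64.5 CPM (SD, n = 16 mice), followed by the fibroblast-like VLMC nuclei at 65.1 ± 44.5 CPM and endothelial-like nuclei at 40.7 ± 71.7 CPM. In endothelial-like nuclei 13 of 16 mice had 3 UMIs or fewer, and the median was 13.3 CPM, against 16.6 CPM in oligodendrocyte-like nuclei. Among the neuronal types compared, none had a mean above 2.91 CPM. The order of the non-neuronal types was not fixed within mice, since astrocyte-like nuclei were above VLMC-like nuclei in 12 of 15 mice and the mean difference of 39.5 CPM was smaller than its SD of 75.6. The C1q chains were highest in microglia-like nuclei in every mouse, with C1qa at 348 ± 126 CPM, C1qb at 301 ± 90.7 CPM and C1qc at 368 ± 104 CPM. The next type, endothelial-like for C1qa, stood at 43.6 CPM. C1ql3 was highest in L6 IT-like neurons and Csmd1 in L2/3 IT-like neurons. Of the 2110 C4b UMIs, 59.8% lay in astrocyte-like and 18.4% in unnamed nuclei, whereas 22.0% of the C1qa UMIs lay in microglia-like nuclei and 43.0% in unnamed nuclei.

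**Figure D1:**
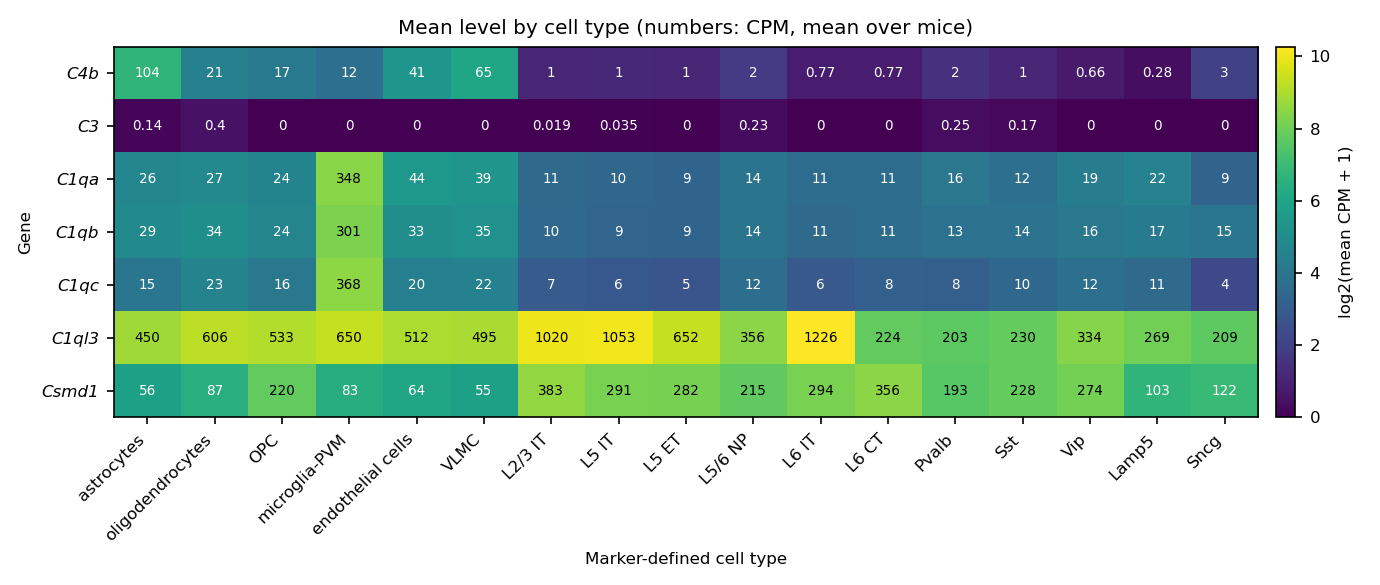
Mean level of each of the 7 genes in the 17 types compared, as log2(mean CPM + 1), with the mean taken over the mice of each type (16, or 15 for VLMC). The C1q chains peak in microglia-like nuclei, C4b in astrocyte-like nuclei, and C1ql3 and Csmd1 in glutamatergic neurons.

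Each type was compared between groups with edgeR's quasi-likelihood test, with p-values adjusted by Benjamini-Hochberg over all genes of the type and a threshold of 0.05 for a call. The 7 genes passed the filter on low counts in 49 pairs of gene and type. In 3xTg-AD alcohol mice versus WT controls 10 of the 49 pairs rose and 0 fell, where 1.16% of all gene and type pairs were called and 0.483% were called higher. In 3xTg-AD alcohol mice versus 3xTg-AD controls 4 pairs rose (background 0.17% called, 0.0355% higher), and against WT alcohol mice 1 pair rose (background 0.396% called, 0.203% higher). For both alcohol groups against both control groups 5 pairs rose (background 0.717% called, 0.276% higher), and for both 3xTg-AD groups against both WT groups 3 pairs rose (background 1.01% called, 0.497% higher). No pair was called in 3xTg-AD controls versus WT controls (background 0.176% called, 0.0835% higher), in WT alcohol mice versus WT controls (background 0.0311% called, 0.00799% higher) or in the interaction of genotype and alcohol (background 0.00266% called, 0.000888% higher). By edgeR 5, 11 and 6 of the 49 pairs had an unadjusted p under 0.05 in these comparisons, in the same order, as had 6.31%, 8.98% and 4.23% of all gene and type pairs. DESeq2 on the same sums called 0 pairs in each of these 3 comparisons. These comparisons share groups, so their counts are not independent. The count of 10 was 5 without mouse 33 and 6 without mouse 34. The 10 pairs were C4b in astrocyte-like nuclei, C1qa and C1qb in microglia-like nuclei, C1qa and C1qb in astrocyte-like nuclei and in L2/3 IT-like neurons, C1qa in L5 ET-like neurons, and C1qb in L5 IT-like and L6 CT-like neurons.

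C4b, on chromosome 17 (GRCm38, chr17:34728380-34743882, minus strand), encodes the C4 protein that C1 cleaves, and it rose in astrocyte-like nuclei of 3xTg-AD alcohol mice. The level was 45.8, 40.3, 60.2 and 93.5 CPM in WT controls 26, 27, 28 and 36, resting on 25, 16, 27 and 75 UMIs. It was 116, 101, 105 and 56.3 CPM in WT mice 6, 7, 17 and 18 exposed to alcohol, and 67.2, 69.9, 65.2 and 69.4 CPM in 3xTg-AD controls 12, 13, 14 and 21. In 3xTg-AD mice 4, 31, 33 and 34 exposed to alcohol it was 125, 158, 209 and 279 CPM, from 120 to 230 UMIs per mouse. All 4 of these mice lay above the 12 others, a pattern that 0.211% of the 9959 genes tested in astrocyte-like nuclei showed, whereas the other 3 groups overlapped.

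**Figure D2:**
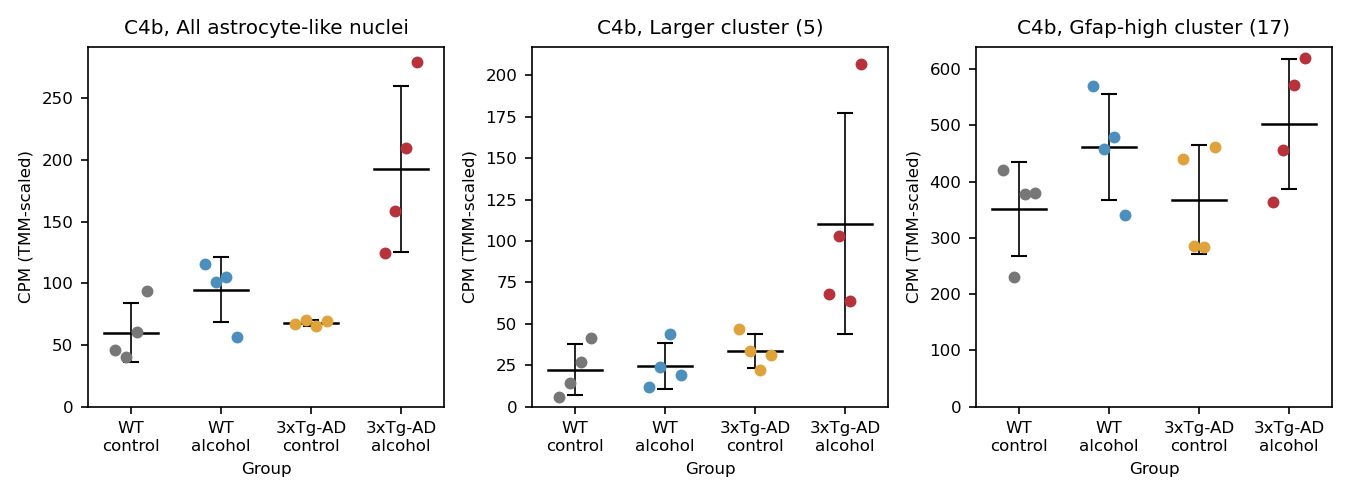
C4b level in CPM for each mouse, by group, in all astrocyte-like nuclei and in their clusters 5 and 17. Points are mice and bars are means with SD; in all astrocyte-like nuclei the 3xTg-AD alcohol mice sit between 125 and 279 CPM and every other mouse is at or below 116 CPM.

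The log2 fold change of C4b in astrocyte-like nuclei was 1.59 (SE 0.27) versus WT controls, with an edgeR adjusted p of 0.00535, and 1.49 (SE 0.26) versus 3xTg-AD controls, with an adjusted p of 0.0111. Of all genes tested in this type, 1.21% were called in the first of these comparisons and 0.261% in the second. Against WT alcohol mice the fold change was 1.02 on the log2 scale (SE 0.25), but the adjusted p was 0.106 (background 0.372%) by edgeR and 0.0119 by DESeq2, and the call was gained by edgeR without mouse 4 (1.18, adjusted p 0.00271) or WT control 36 (1.02, adjusted p 0.00628). Averaged over genotype, alcohol gave 1.03 (SE 0.20, edgeR adjusted p 0.0158, background 0.864%). In WT mice alone the difference between alcohol and control was 0.57 (SE 0.29, adjusted p 0.562), and between the control groups it was 0.11 (SE 0.31, adjusted p 0.987), with backgrounds of 0% and 0.131%. The interaction of genotype and alcohol was 0.92 (SE 0.39) with an unadjusted p of 0.0312 and an adjusted p of 0.982 by edgeR (background 0.0201%), so a different effect of alcohol in the 2 genotypes was not shown across all genes.

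The rise versus WT controls was called without any 1 of the 16 mice (1.38 to 1.96), but it fell short without WT controls 26 and 27 and 3xTg-AD control 12 together (1.25, edgeR adjusted p 0.119), with nuclei named by marker counts (1.53, adjusted p 0.175) and with ribosomal RNA-associated UMIs as a covariate (1.35, adjusted p 0.0583). The rise versus 3xTg-AD controls was lost without mouse 33 (1.43, edgeR adjusted p 0.0639) and without any 1 of the control mice 12, 13, 14 and 21 (1.46 to 1.5, adjusted p 0.0551 to 0.0808), and the averaged effect of alcohol without mouse 33 (adjusted p 0.0525) or mouse 12 (adjusted p 0.0514).

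The share of astrocyte-like nuclei with a C4b UMI was 5.45% ± 2.81 (SD, n = 4) in WT controls, 8.42% ± 2.11 in WT alcohol mice, 6.64% ± 0.439 in 3xTg-AD controls and 18.5% ± 5.79 in 3xTg-AD alcohol mice. With each nucleus thinned to 1000 UMIs and shallower nuclei left out, the 4 shares were 4.38%, 7.82%, 5.69% and 13.9%. They rested on 140 to 563 nuclei per mouse, and on 140 of 391 in WT control 28. After thinning, 3xTg-AD alcohol mouse 4, at 10.5%, lay below WT alcohol mouse 6, at 11.0%. The unthinned shares of the 3xTg-AD alcohol mice, at 11.8% or more, lay above those of all other mice, at 10.5% or less. In L2/3 IT-like neurons, which were deeper, 0.28% of nuclei had a C4b UMI.

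The astrocyte-like nuclei comprised cluster 5, with 6880 nuclei, and cluster 17, with 818 nuclei and Gfap, Myoc and Aqp4 among its leading genes. C4b averaged 47.7 CPM in cluster 5 and 421 CPM in cluster 17, and cluster 17 held 54.8 to 76.7% of the C4b UMIs of astrocyte-like nuclei (group means). In cluster 5 C4b was 6.0 to 41.3 CPM in WT controls, 11.7 to 44.0 CPM in WT alcohol mice, 22.3 to 46.9 CPM in 3xTg-AD controls and 63.6 to 207 CPM in 3xTg-AD alcohol mice, the last group without overlap with the other 3, as for 0.233% of the genes tested in this cluster. The log2 fold change versus WT controls was 2.15 (SE 0.53, background 1.11%), with an adjusted p of 0.083 by edgeR and 0.0106 by DESeq2, and without mouse 34, the highest, it was 1.71 with an edgeR adjusted p of 0.0299. In cluster 17 the groups overlapped, with means of 352, 462, 368 and 503 CPM in WT controls, WT alcohol, 3xTg-AD controls and 3xTg-AD alcohol, and the difference of the last from the first was 0.49 on the log2 scale (edgeR adjusted p 0.60, background 0.454%). Cluster 17 made up 11.0 to 17.8% of the astrocyte-like nuclei in 3xTg-AD alcohol mice, against 6.96 to 10.2% in WT controls, 7.41 to 16.1% in WT alcohol mice and 4.09 to 13.3% in 3xTg-AD controls. Its part in the difference over all astrocyte-like nuclei was not tested. The median UMI count of the astrocyte-like nuclei, 1160 to 1479 per mouse in 3xTg-AD alcohol mice and 925 to 1681 in the other mice, overlapped. The 11 markers used to name astrocyte-like nuclei, all detected in every mouse, summed there to 6800 to 7655 CPM in 3xTg-AD alcohol mice and 6581 to 7905 CPM in WT alcohol mice, against 5216 to 6796 CPM in 3xTg-AD controls and 5896 to 6684 CPM in WT controls, so the 3xTg-AD alcohol mice lay above both control groups. The part of this shift in the C4b result was not tested.

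Over all nuclei of a mouse, without any use of types, C4b was 3.73, 3.65, 3.98 and 8.17 CPM in WT controls and 11.2, 17.1, 22.7 and 25.3 CPM in 3xTg-AD alcohol mice, while the 8 mice of the other groups lay between 5.93 and 7.45 CPM. The log2 fold change was 1.94 (SE 0.26) versus WT controls with an edgeR adjusted p of 0.000433, 1.49 versus 3xTg-AD controls (adjusted p 0.0177) and 1.53 versus WT alcohol mice (adjusted p 0.00498), where 4.06%, 0.483% and 0.942% of all genes were called. The second of these was lost without any 1 of mice 13, 21, 31, 33 and 34 (edgeR adjusted p 0.0622 to 0.0720). In such a sum more C4b per nucleus and more nuclei that express it cannot be told apart, and astrocyte-like nuclei were 7.21 to 8.6% of all nuclei in 3xTg-AD alcohol mice and 4.98 to 8.02% in the other mice. In the remaining types C4b did not pass the filter and was not tested. In oligodendrocyte-like nuclei it was 45.5, 37.2, 31.9 and 77.6 CPM in 3xTg-AD alcohol mice, 0 in 3 WT controls and 47.2 CPM, from 18 UMIs, in WT control 36, so the groups overlapped through that mouse. In OPC-like nuclei 1 UMI was counted in WT controls, 4 in WT alcohol mice, 16 in 3xTg-AD controls and 30 in 3xTg-AD alcohol mice. In endothelial-like nuclei the 4 sums were 1, 1, 10 and 28 UMIs, and both lists of sums rest on too few UMIs for a comparison of levels. VLMC-like nuclei, second highest for C4b, held 68 UMIs in all, with 3 or fewer in 8 of 15 mice. Their levels ranged from 0 to 159 CPM, and their groups were not compared.

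C4a, the neighbour of C4b at 65209 bases on the same strand, is a near copy, and reads that match both genes cannot be placed. Of the windows of 90 bases in the last 1000 bases of the longest C4b transcript, 17% also occur in C4a. C4a averaged 3.89 to 5.33 CPM in the glutamatergic types, 0.844 to 3.15 CPM in interneurons and 1.25 CPM in astrocyte-like nuclei, where C4b was highest.

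C3 (chr17:57203970-57228136, minus strand), the component on which the pathways converge, was at the limit of these data. In all 114512 nuclei 15 C3 UMIs were listed, 5 each in 3xTg-AD mice 4 and 33 and WT mouse 18, all exposed to alcohol, and 0 in the 13 other mice. No gene in the table was above 0 in fewer than 5 nuclei of a mouse, so each of these 0 values may stand for up to 4 nuclei, and C3 passed the test's filter in no type. Mice 4, 33 and 18 had 9077, 9096 and 8885 nuclei, and no control had more than 7227. WT mouse 6, also exposed to alcohol, had 8905 nuclei and 0 listed C3 UMIs. The part of library size in these counts was not tested. In astrocyte-like nuclei 2 of 7698 nuclei had a listed C3 UMI, and in microglia-like nuclei 0 of 3357 did. A difference in C3 between groups was not detectable at this depth.

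C1qa, C1qb and C1qc lie side by side on chromosome 4 within 18675 bases, all on the minus strand, at chr4:136895917-136898803, chr4:136880129-136886187 and chr4:136889804-136893065. The promoters of C1qb and C1qc are shown because these 2 chains share a locus and a cell type, and that of C1qa was not at hand. Capitals mark the core letters GAGGAA recognised by PU.1, a transcription factor of the myeloid lineage, searched on both strands, and each run covers 250 bases before and 50 bases after the RefSeq start (GRCm38.p6, 5′ to 3′ in the direction of transcription).
C1qb, chr4:136886151-136886450, minus strand: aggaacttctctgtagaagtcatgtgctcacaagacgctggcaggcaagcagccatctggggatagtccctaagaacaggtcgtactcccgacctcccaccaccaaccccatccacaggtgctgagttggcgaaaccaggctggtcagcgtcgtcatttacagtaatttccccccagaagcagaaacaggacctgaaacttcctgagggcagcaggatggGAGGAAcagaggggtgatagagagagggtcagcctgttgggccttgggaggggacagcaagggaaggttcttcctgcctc
C1qc, chr4:136892865-136893164, minus strand: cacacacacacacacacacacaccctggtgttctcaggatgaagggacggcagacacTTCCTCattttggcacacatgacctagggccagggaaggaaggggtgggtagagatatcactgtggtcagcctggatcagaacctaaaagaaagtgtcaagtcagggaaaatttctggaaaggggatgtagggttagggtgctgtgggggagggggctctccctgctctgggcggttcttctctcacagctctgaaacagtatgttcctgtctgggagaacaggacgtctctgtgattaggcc
The letters stood 30 bases before the start in C1qb and, as the reverse complement TTCCTC, 193 bases before the start in C1qc. They occurred in 28.3% of 32851 RefSeq promoters of this length, so a match is common and marks no proven site. Neither promoter held TTCNNNGAA (the gamma-activated site), the core of the interferon-stimulated response element or TATAAA, found on either strand in 8.30%, 3.44% and 13.6% of promoters. RefSeq promoters of 4 of the 7 genes were at hand, and those of C4b, C1qa and Csmd1 were not.

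C1qa and C1qb, the A and B chains, rose in microglia-like nuclei with alcohol averaged over genotype. C1qa was 270, 139, 190 and 310 CPM in WT controls 26, 27, 28 and 36, and 413, 375, 453 and 413 CPM in WT mice 6, 7, 17 and 18 exposed to alcohol. It was 225, 258, 334 and 257 CPM in 3xTg-AD controls 12, 13, 14 and 21, and 424, 375, 512 and 623 CPM in 3xTg-AD mice 4, 31, 33 and 34 exposed to alcohol. The lowest of the 8 mice exposed to alcohol, at 375 CPM, was thus above the highest of the 8 controls, at 334 CPM.

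C1qb took the values 270, 198, 180 and 229 CPM in WT controls and 375, 327, 363 and 329 CPM in WT alcohol mice. In 3xTg-AD controls it was 221, 226, 315 and 197 CPM, and in 3xTg-AD alcohol mice 329, 327, 433 and 499 CPM. Here too the 8 mice exposed to alcohol lay above the 8 controls, by a gap between 315 and 327 CPM. Among the 6067 genes tested in this type 4 (0.0659%) separated the 8 from the 8 in this direction, C1qa and C1qb among them.

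C1qc was 304, 308, 222 and 386 CPM in WT controls, 418, 202, 512 and 455 CPM in WT alcohol mice, 296, 285, 426 and 274 CPM in 3xTg-AD controls, and 390, 429, 407 and 578 CPM in 3xTg-AD alcohol mice. Mouse 7, a WT mouse exposed to alcohol, had the lowest level of all and 3xTg-AD control 14 one of the higher ones, and the groups overlapped.

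**Figure D3:**
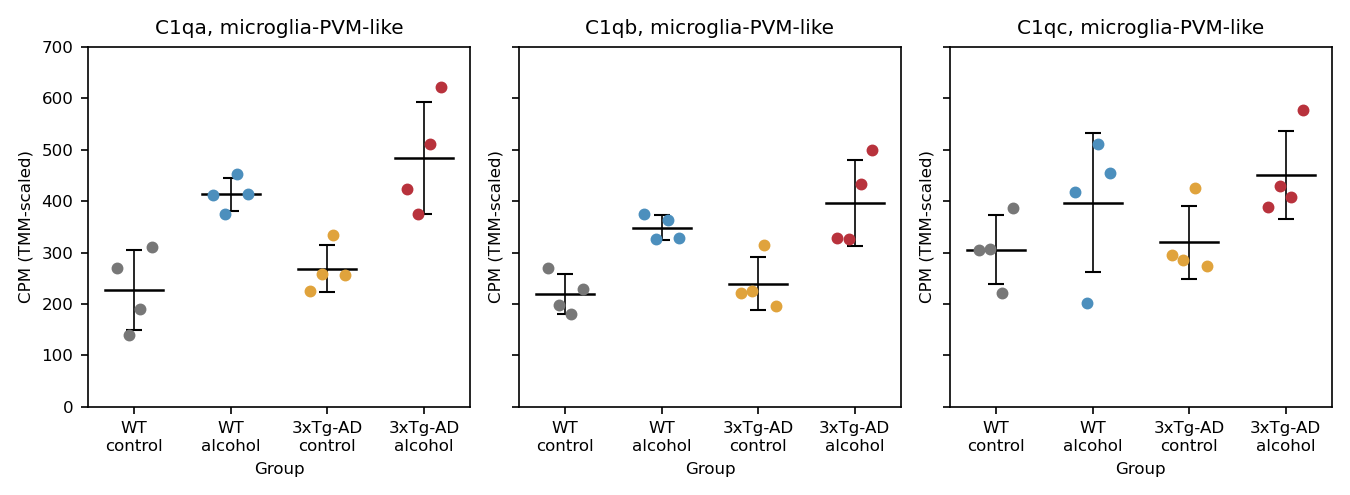
Levels of C1qa, C1qb and C1qc in microglia-like nuclei in CPM, with 1 point per mouse and the mean and SD of each group. For C1qa and C1qb all 8 mice exposed to alcohol lie above all 8 controls, at 375 CPM or more and 327 CPM or more, and for C1qc the groups overlap.

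For both alcohol groups against both control groups the log2 fold change was 0.83 (SE 0.14) for C1qa, with an edgeR adjusted p of 0.000498, and 0.69 (SE 0.14) for C1qb, with an adjusted p of 0.013, where 0.264% of the genes tested in microglia-like nuclei were called. For C1qc it was 0.45 (SE 0.14), with an unadjusted p of 0.00228 and an adjusted p of 0.135. The SEs of the chains overlap enough that a smaller change of C1qc was not shown, and the difference between chains was not tested. In 3xTg-AD alcohol mice versus WT controls C1qa rose by 1.02 (SE 0.20, edgeR adjusted p 0.00122) and C1qb by 0.82 (SE 0.20, adjusted p 0.0142), with C1qc at 0.53 (SE 0.20, adjusted p 0.206) and a background of 1.07% called. Versus 3xTg-AD controls C1qa rose by 0.85 (SE 0.18, edgeR adjusted p 0.0345, background 0.0989%), and C1qb stood at 0.73 (SE 0.18) with an adjusted p of 0.0753 by edgeR and 0.0265 by DESeq2, called by edgeR without any 1 of mice 31, 4 and 14 (0.82 to 0.89, adjusted p 0.0278 to 0.0432). In WT mice alone alcohol gave 0.81 (SE 0.21) for C1qa and 0.64 (SE 0.21) for C1qb, with edgeR adjusted p of 0.267 and 0.355 (background 0% of the genes of this type). The interaction was 0.04 (SE 0.28) for C1qa and 0.09 (SE 0.28) for C1qb, and the 2 control groups differed by 0.17 (SE 0.21) and 0.09 (SE 0.21), none of them called (backgrounds 0% for the interaction and 0.132% for the controls).

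The averaged effect of alcohol on C1qa was called without any 1 of the 16 mice (0.75 to 0.92). That on C1qb was lost without 3xTg-AD control 13 (0.67, edgeR adjusted p 0.0574), and that on C1qc was gained without WT mouse 7 (0.53, adjusted p 0.0448). The C1qb call was also lost with nuclei named by marker counts and without nuclei that carried markers of another class. Versus WT controls C1qb was lost without mouse 33 (0.78, adjusted p 0.0515), mouse 34 (0.69, adjusted p 0.109) or mouse 28 (0.75, adjusted p 0.0605), and versus 3xTg-AD controls C1qa was lost without any 1 of mice 33, 34, 12, 13, 21 and 6 (0.71 to 0.85, adjusted p 0.0523 to 0.352). Marker-count naming, and leaving out the mice with most Gm42418 together, also ended both of these calls. The ribosomal RNA covariate ended that of C1qb.

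The sum of the 12 markers used to name microglia-like nuclei moved in the same direction in these nuclei. It was 2930 to 4316 CPM in WT controls and 2934 to 3787 CPM in 3xTg-AD controls, against 4000 to 5150 CPM in WT alcohol mice and 4406 to 4903 CPM in 3xTg-AD alcohol mice. All 12 markers were detected in every group. Of the 12, 11 had a positive fold change for alcohol averaged over genotype, with a median of 0.44 on the log2 scale, and 1 was called, Ctss, which encodes the lysosomal protease cathepsin S (0.71, edgeR adjusted p 0.027). In 3xTg-AD alcohol mice versus WT controls 3 of the 12 were called higher, Ptprc, Apbb1ip and Ctss (0.93, 1.02 and 0.88, edgeR adjusted p up to 0.0254), with a median of 0.19 over the 12. Astrocyte markers in the same nuclei summed to 1102 and 1358 CPM in the WT groups and 456 and 581 CPM in the 3xTg-AD groups. The part of these shifts in the C1q result was not tested.

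The share of microglia-like nuclei with a C1qa UMI was 20.4% ± 4.92 (SD, n = 4) in WT controls, 33.7% ± 3.56 in WT alcohol mice, 21.8% ± 2.97 in 3xTg-AD controls and 36.8% ± 7.55 in 3xTg-AD alcohol mice. With each nucleus thinned to 1000 UMIs and shallower nuclei left out, the shares were 14.8, 26.1, 16.4 and 29.5% in the same order. The thinned shares of the control mice (6.25 to 29.0%) overlapped those of the alcohol mice (17.1 to 46.4%), on 23 to 94 nuclei per mouse, whereas the unthinned ones did not (14.3 to 25.6% against 29.9 to 46.7%). Of all 3357 microglia-like nuclei 60.7% had a UMI of at least 1 chain and 4.41% of all 3, against 7.18% and 0.0140% of L2/3 IT-like neurons.

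The C1q chains were also counted outside microglia-like nuclei, at lower levels, and in 3xTg-AD alcohol mice versus WT controls C1qa rose in 3 and C1qb in 4 of the 5 such types in which each was tested (background 1.16% over all types). C1qa averaged 23.6 to 43.6 CPM in the other non-neuronal types, 8.77 to 14.2 CPM in glutamatergic neurons and 8.58 to 22.2 CPM in interneurons. Whether these C1q UMIs came from RNA outside the nuclei was not tested. The 8 glutamatergic markers summed to group means of 2894 to 3163 CPM in microglia-like and 2277 to 2623 CPM in astrocyte-like nuclei. In L2/3 IT-like neurons themselves they summed to 2474 to 2738 CPM, so the glial types also held UMIs of neuronal markers. The summed level of the 3 chains in astrocyte-like nuclei was 50.1 CPM in WT controls, 67.7 CPM in WT alcohol mice, 52.3 CPM in 3xTg-AD controls and 111 CPM in 3xTg-AD alcohol mice. In L2/3 IT-like neurons it was 19.5, 22.9, 26.8 and 41.0 CPM in the same order, and in unnamed nuclei 63.3, 89.7, 87.3 and 141 CPM.

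**Figure D4:**
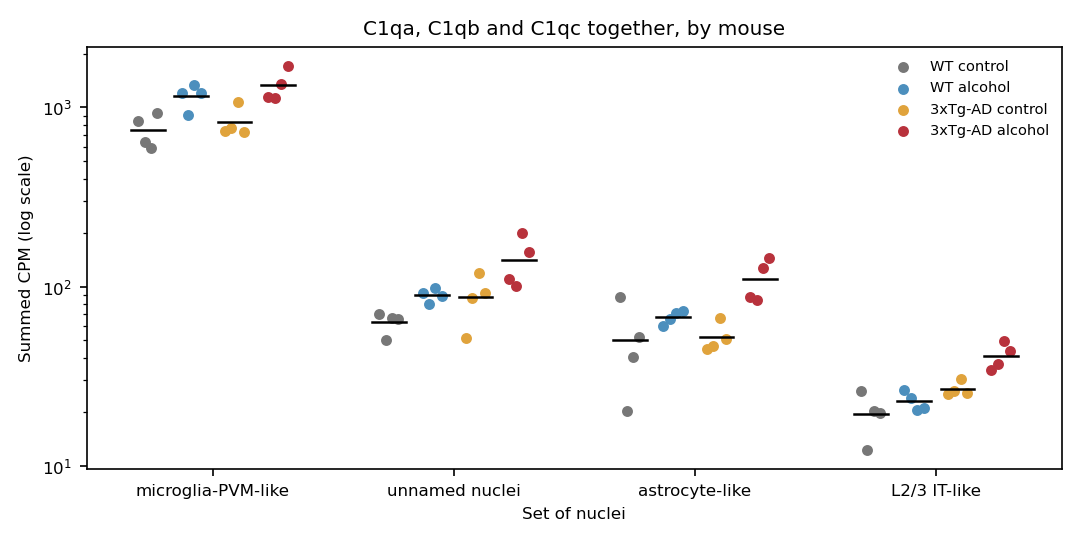
Summed level of C1qa, C1qb and C1qc in CPM for each mouse by group, on a shared logarithmic axis. The sets are microglia-like nuclei, unnamed nuclei, astrocyte-like nuclei and L2/3 IT-like neurons, with lines at the group means. Between WT controls and 3xTg-AD alcohol mice the group mean goes from 751 to 1331.5 CPM in microglia-like nuclei and from 19.5 to 41.0 CPM in L2/3 IT-like neurons.

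In astrocyte-like nuclei C1qa was 36.6, 5.04, 15.6 and 16.2 CPM in WT controls and 33.2, 32.6, 56.4 and 53.8 CPM in 3xTg-AD alcohol mice, which overlapped through WT control 26. The log2 fold change was 1.19 (SE 0.29, edgeR adjusted p 0.0211). In L2/3 IT-like neurons C1qa was 9.22, 4.28, 7.84 and 5.69 CPM in WT controls and 15.6, 19.4, 15.3 and 15.8 CPM in 3xTg-AD alcohol mice, without overlap, as for 4.27% of the genes tested in this type, with a log2 fold change of 1.24 (SE 0.23, edgeR adjusted p 0.00368). C1qb in the same neurons changed by 1.25 (SE 0.27, adjusted p 0.0129, where 3.15% of genes were called). In L5 ET-like neurons C1qa changed by 1.84 (SE 0.39, edgeR adjusted p 0.0167, background 0.882%). C1qb changed by 1.67 (SE 0.36, edgeR adjusted p 0.0138, background 1.28%) in L5 IT-like and by 1.46 (SE 0.36, adjusted p 0.0252, background 1.33%) in L6 CT-like neurons. C1qa in astrocyte-like nuclei was lost without any 1 of mice 33, 34, 27, 28 and 36 (0.95 to 1.11, edgeR adjusted p 0.0541 to 0.126), and in L5 ET-like neurons without any 1 of mice 34, 28 and 36 (1.62 to 1.91, adjusted p 0.0505 to 0.059). C1qb was lost in L2/3 IT-like neurons without mouse 33 (1.0, edgeR adjusted p 0.0821) and in L5 IT-like neurons without mouse 33 or 34 (1.57 and 1.55, adjusted p 0.0607 and 0.0538). In L6 CT-like neurons C1qb was lost without any 1 of mice 31, 33, 4, 26 and 36 (1.25 to 1.51, edgeR adjusted p 0.0524 to 0.12). The rise of C1qb in astrocyte-like nuclei was lost without nuclei that carried markers of another class (0.97, edgeR adjusted p 0.292), as was that of C1qa (1.39, adjusted p 0.0806). By DESeq2 the adjusted p was 0.0555 for C1qa in astrocyte-like nuclei and 0.0612 for C1qb in L6 CT-like neurons. Of the alternatives in processing, 4 ended the call of C1qb in astrocyte-like nuclei versus WT controls and 5 kept it. For C1qa in these nuclei 3 ended it and 6 kept it, and for C1qb in L6 CT-like neurons 3 ended it and 5 kept it. Of 40 C1qc tests in all types 0 were called by edgeR or DESeq2 (edgeR backgrounds 0.00266 to 1.16%, so that 0 of 40 does not set C1qc apart from other genes). By edgeR 5 of the 40 had an unadjusted p under 0.05, as had 9.04% of the tests of all genes. C1qc gave 0.38 (SE 0.30) in L2/3 IT-like neurons and 0.52 (SE 0.37) in astrocyte-like nuclei versus WT controls. The 12 microglial markers summed to 48.9, 48.0, 56.3 and 52.1 CPM in L2/3 IT-like neurons of WT controls, WT alcohol, 3xTg-AD controls and 3xTg-AD alcohol, and in astrocyte-like nuclei to 111, 123, 124 and 146 CPM. In 3xTg-AD alcohol mice versus WT controls, 1 of the 5 of these markers tested in L2/3 IT-like neurons was called higher, Ctss (1.27, SE 0.29, edgeR adjusted p 0.0172, median of the 5 -0.12), as was 1 of the 4 tested in astrocyte-like nuclei, again Ctss (1.33, SE 0.34, adjusted p 0.0372, median of the 4 0.52). With genotype averaged over alcohol Ctss was also called higher in both (0.93 and 1.04, edgeR adjusted p 0.0134 and 0.015). Its part in the C1q results was not tested.

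Other comparisons also gave calls of C1qa and C1qb outside microglia-like nuclei. With alcohol averaged over genotype, astrocyte-like nuclei rose by 0.82 (SE 0.22, edgeR adjusted p 0.0476) for C1qa and 0.81 (SE 0.20, adjusted p 0.0276) for C1qb (background 0.864%). The first was kept only without mouse 4, 31 or 26, and the second was lost without any 1 of mice 33, 34, 12, 13, 21, 17, 18, 27 and 28 (0.70 to 0.81, edgeR adjusted p 0.0514 to 0.081). Both were also lost without mixed nuclei (0.87 and 0.51, edgeR adjusted p 0.198 and 0.477). Of the alternatives in processing, 3 ended the call of C1qa and 5 kept it, and 4 ended that of C1qb and 4 kept it.

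Versus 3xTg-AD controls, C1qa in astrocyte-like nuclei rose by 1.27 (SE 0.28, edgeR adjusted p 0.0148, background 0.261%) and C1qb in L6 CT-like neurons by 1.52 (SE 0.35, adjusted p 0.0398, background 0.287%). The astrocyte-like call was lost without any 1 of mice 33, 34, 14 and 21 (1.1 to 1.2, edgeR adjusted p 0.064 to 0.156), and the L6 CT-like call without any 1 of the 8 3xTg-AD mice (1.31 to 1.66, adjusted p 0.0901 to 0.162). Versus WT alcohol mice, C1qa in L2/3 IT-like neurons rose by 0.96 (SE 0.22, edgeR adjusted p 0.0375, background 0.686%), which was lost without any 1 of the 8 mice compared (0.86 to 1.02, adjusted p 0.0561 to 0.172).

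With genotype averaged over alcohol, C1qa rose by 0.78 (SE 0.17, edgeR adjusted p 0.0103, background 2.41%) in L2/3 IT-like neurons and was called without any 1 mouse (0.72 to 0.87). In L5 ET-like neurons it rose by 1.12 (SE 0.26, edgeR adjusted p 0.0329, background 0.864%), lost without any 1 of mice 34, 13, 21, 17, 6, 27, 28 and 36 (1.0 to 1.16, adjusted p 0.053 to 0.0898). C1qb rose by 1.0 (SE 0.25, edgeR adjusted p 0.0299, background 1.33%) in L5 IT-like neurons, lost without any 1 of mice 33, 34, 13, 14, 6, 7, 26, 28 and 36 (0.92 to 0.99, adjusted p 0.054 to 0.0752).

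The chains were not counted in 1 ratio in all nuclei. C1qc made up 36.1% of the UMIs of the 3 chains in microglia-like nuclei (95% Wilson interval 34.5 to 37.7%, counting error only) and 23.0% (22.0 to 24.0%) in unnamed nuclei, 24.1% (21.6 to 26.7%) in L2/3 IT-like neurons and 21.1% (18.4 to 23.9%) in astrocyte-like nuclei. In the 16 other types the share ranged from 13.6 to 30.1%. All 16 lay below that of microglia-like nuclei, but the intervals of L5/6 NP-like (23.5 to 37.5%), VLMC-like (19.5 to 36.5%) and Vip-like nuclei (18.3 to 34.8%) overlapped its interval, and the lowest share, in Sncg-like neurons, rested on 3 C1qc UMIs (interval 4.75 to 33.3%). The cause of the different ratio was not tested.

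Over all nuclei of a mouse C1qa was 12.6 to 21.6 CPM in WT controls, 21.8 to 25.6 CPM in WT alcohol mice, 17.5 to 29.9 CPM in 3xTg-AD controls and 28.8 to 49.3 CPM in 3xTg-AD alcohol mice. The log2 fold change of the last versus the first was 1.26 (SE 0.20, edgeR adjusted p 0.00198) for C1qa, 1.29 (SE 0.23, adjusted p 0.00508) for C1qb and 1.07 (SE 0.21, adjusted p 0.00797) for C1qc. Of all genes, 4.06% were called in this comparison. Of the 12 microglial markers 11 had a positive fold change over all nuclei, with a median of 0.55 on the log2 scale, and 3 were called higher. Microglia-like nuclei were also the most frequent in that group, as given above. The part of these shifts in the C1q values was not tested.

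C1ql3 (chr2:13003457-13011806, minus strand), which binds the adhesion receptor Adgrb3 at synapses, marked the intratelencephalic neurons. It reached 1226 ± 240 CPM (SD, n = 16) in L6 IT-like, 1053 ± 271 CPM in L5 IT-like and 1020 ± 176 CPM in L2/3 IT-like neurons, and L6 IT-like was above L5 IT-like in 16 of 16 mice, while L5 IT-like and L2/3 IT-like neurons did not differ beyond their spread (9 of 16 mice). L5 ET-like neurons had 652 CPM, and microglia-like and oligodendrocyte-like nuclei 650 and 606 CPM, above the 203 to 356 CPM of interneurons, L6 CT-like and L5/6 NP-like neurons. Unnamed nuclei had 929 CPM. Microglia-like nuclei also held UMIs of glutamatergic markers, as given above. The source of the C1ql3 UMIs in glial nuclei was not tested.

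Of 136 C1ql3 tests edgeR called 0 and DESeq2 called 1, in L6 IT-like neurons, while 18 had an unadjusted p under 0.05 by edgeR, as had 9.04% of the tests of all genes. With edgeR backgrounds of 0.00266 to 1.16% over the 8 comparisons, a count of 0 or 1 does not set C1ql3 apart from other genes. There it was 734, 1035, 1095 and 1248 CPM in WT controls, 1580, 1415, 1276 and 1396 CPM in WT alcohol mice, 1187, 1138, 1066 and 1012 CPM in 3xTg-AD controls, and 1516, 1027, 1641 and 1257 CPM in 3xTg-AD alcohol mice. The mice exposed to alcohol overlapped the controls through mouse 31, since the other 7 lay at 1257 CPM or more and the highest control at 1248 CPM. Alcohol averaged over genotype gave 0.38 on the log2 scale (SE 0.10), with an adjusted p of 0.0599 by edgeR and 0.0335 by DESeq2, and without mouse 31 or mouse 36 it was 0.44 with an edgeR adjusted p of 0.0307 or 0.0203.

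Csmd1 (chr8:15892537-17535586, minus strand) was a neuronal and OPC transcript. It was highest in L2/3 IT-like neurons at 383 ± 80.3 CPM (SD, n = 16) and L6 CT-like neurons at 356 ± 71.4 CPM, which did not differ beyond their spread, and both lay above L6 IT-like, L5 IT-like and L5 ET-like neurons at 282 to 294 CPM. OPC-like nuclei, at 220 CPM, stood among the interneurons, and the remaining non-neuronal types lay between 55.4 and 87.4 CPM. In L2/3 IT-like neurons Csmd1 was 404, 444, 287 and 286 CPM in WT controls, 303, 321, 436 and 476 CPM in WT alcohol mice, 430, 289, 299 and 313 CPM in 3xTg-AD controls, and 439, 415, 514 and 473 CPM in 3xTg-AD alcohol mice. The last group was high but overlapped all others, and its difference from WT controls was 0.37 on the log2 scale (SE 0.17, edgeR adjusted p 0.225). Of 112 Csmd1 tests 0 were called by edgeR or DESeq2, and with the same backgrounds of 0.00266 to 1.16% called that 0 does not set Csmd1 apart from other genes. By edgeR 17 of the 112 had an unadjusted p under 0.05, as had 9.04% of the tests of all genes in the 17 types over the 8 comparisons. Csmd1 spans 1643050 bases and overlaps antisense transcripts, among them Gm16347.

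**Figure D5:**
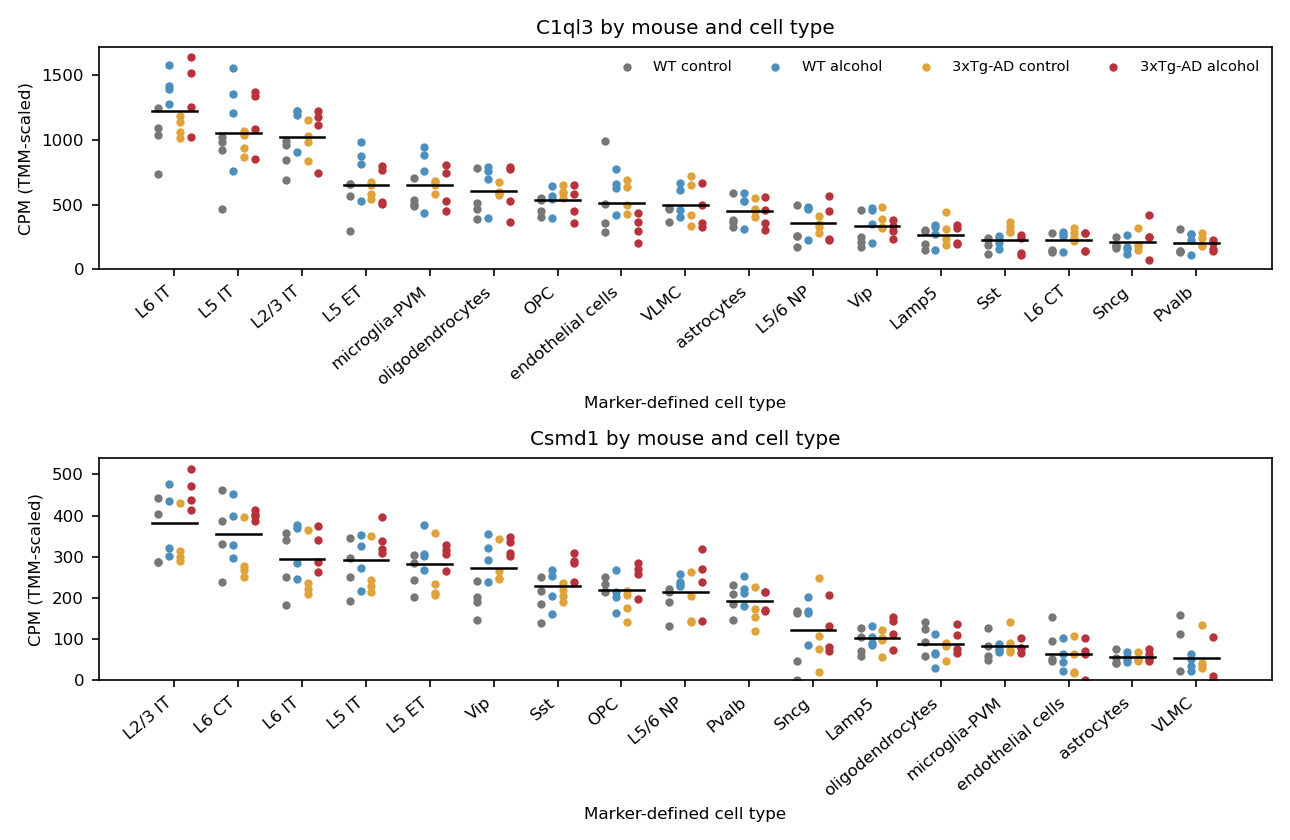
Levels of C1ql3 and Csmd1 in CPM in the 17 types compared, with 1 point per mouse and the mean of each type. C1ql3 is highest in L6 IT-like neurons (mean 1226 CPM) with glial types above interneurons, and Csmd1 is highest in L2/3 IT-like neurons (mean 383 CPM) with the non-neuronal types other than OPC lowest.

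Other genes of the pathway were read from 5 lists. Of the 15 genes that start the classical and lectin pathways 12 were in the table and 4 passed the filter in some type, in 13 pairs, of which 0 rose and 3 fell in 3xTg-AD alcohol mice versus WT controls (background 1.16%), with a median log2 fold change of -0.76 against 0.00 over all genes. All 3 were Masp2, which encodes a protease of the lectin pathway. In L2/3 IT-like neurons Masp2 was 28.1 to 44.3 CPM in WT controls, 16.2 to 30.5 CPM in WT alcohol mice, 35 to 44.4 CPM in 3xTg-AD controls and 13.2 to 23.4 CPM in 3xTg-AD alcohol mice, and for alcohol averaged over genotype it fell by 0.79 (SE 0.14, edgeR adjusted p 0.00619, background 2.1%) on the log2 scale. In Pvalb-like and L6 CT-like neurons it fell by 1.80 (SE 0.38, edgeR adjusted p 0.00673) and 1.11 (SE 0.29, adjusted p 0.0441) versus WT controls. The fall in L6 CT-like neurons was lost without any 1 of mice 4, 31, 33, 34, 26, 27 and 28 (-1.24 to -0.93, edgeR adjusted p 0.0732 to 0.132). Masp2 overlaps Tardbp over 3118 bases on the opposite strand, and whether the counting used strand was not given in the sources used here.

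The regulators were 18 genes, 17 of them in the table, in 130 pairs, of which 1 rose and 1 fell in 3xTg-AD alcohol mice versus WT controls, with a median of -0.02. These 2 of 130 pairs are a share near the background of 1.16%, as are 2 for genotype averaged over alcohol (background 1.01%) and 1 for averaged alcohol (background 0.717%), so the counts are not a result about the list. Cd59a, which encodes an inhibitor of the membrane attack complex, rose with genotype. In L2/3 IT-like neurons it averaged 3.28 and 6.71 CPM in WT controls and WT alcohol mice and 13 and 13.9 CPM in the 3xTg-AD groups, and both 3xTg-AD groups were above both WT groups by 1.44 (SE 0.33, edgeR adjusted p 0.0237, background 2.41%) there and by 1.26 (SE 0.29, adjusted p 0.0168) in L5 IT-like neurons. Without mouse 31 the first was lost (1.42, edgeR adjusted p 0.0549), and both were lost without mice 26, 27 and 12 together (1.22 and 1.02, adjusted p 0.0789 and 0.0952). Csmd3, a large relative of Csmd1, fell by 0.88 (SE 0.21, edgeR adjusted p 0.0286) in microglia-like nuclei of 3xTg-AD alcohol mice versus WT controls, from a mean of 1365 to 749 CPM. The source of these UMIs in microglia-like nuclei was not tested, and the call was lost without any 1 of mice 31, 33, 34, 12, 26, 27 and 36 (-0.92 to -0.72, edgeR adjusted p 0.0542 to 0.122). Clu, which encodes clusterin, rose with alcohol averaged over genotype in Sst-like neurons by 0.61 (SE 0.15, adjusted p 0.0264), with means of 111 and 106 CPM in the control groups and 175 and 166 CPM in the alcohol groups. It was lost without any 1 of mice 33, 34, 12, 21, 18 and 27 (0.53 to 0.61, edgeR adjusted p 0.0594 to 0.0735).

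Of 10 alternative and terminal pathway genes 6 were in the table and only Cfp, which encodes properdin, passed the filter, in 6 pairs, of which 1 was called for averaged genotype (background 1.01%). It rose with genotype in L2/3 IT-like neurons (0.58, SE 0.16, edgeR adjusted p 0.0487), with means of 13.8 and 11.3 CPM in the WT groups and 19.1 and 17.8 CPM in the 3xTg-AD groups. This call was kept only without mouse 34, 21 or 28, and was lost without any 1 of the 13 others (0.49 to 0.63, edgeR adjusted p up to 0.133). Of 12 receptor genes 7 passed the filter, in 53 pairs, and 0 of their 424 tests over the 8 comparisons were called by edgeR or DESeq2 (edgeR backgrounds 0.00266 to 1.16%). By edgeR 18 of the 424 had an unadjusted p under 0.05, as had 9.04% of the tests of all genes. Of 16 C1q-like genes and their receptors 11 passed the filter, in 131 pairs, and 1 was called in 1 comparison, near the background of 0.717% there. This was Adgrb3, the receptor of C1ql3, which rose with alcohol averaged over genotype in L2/3 IT-like neurons by 0.29 (SE 0.08, edgeR adjusted p 0.044), from means of 371 and 361 CPM in the control groups to 420 and 477 CPM in the alcohol groups. It was kept only without mouse 4, 12 or 27, and was lost without any 1 of the 13 others (0.26 to 0.30, edgeR adjusted p up to 0.106).

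Across the 17 types, the genes whose log2(mean CPM + 1) followed that of a complement gene most closely were compared among 13651 genes, as a description over types that share libraries. For C4b these were Apoe, Abhd4 and Ptn, with Pearson's r of 0.94 for each, and for C1qa they were Tmem119, Fcer1g and C1qb (0.99 to 0.98). C1qb was followed by Ctss, C1qa and Dnajc7 (0.98 to 0.97), and C1qc by C1qa, Unc93b1 and Ly86 (0.98 to 0.97). For C1ql3 they were Slc24a4, Bdnf and Schip1, and for Csmd1 Ptpn5, Gm16347 and Lrrc7. Over the same types r was -0.81 between C4b and Csmd1.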

How the data were processed

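Per the labels and the study's methods, the authors sequenced nuclei of the medial prefrontal cortex on the 10x Genomics platform (3′ chemistry), aligned the reads to mm10 with Cell Ranger 6.1.1, which uses STAR, and deposited raw UMI counts per gene and nucleus. Whether intronic reads were counted and which annotation was used were not given in the sources used here.

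From the deposited counts, nuclei of the 16 mice were log-normalised and clustered (2000 variable genes without the 7 genes, 30 principal components, 20 neighbours, Leiden resolution 1.5) and clusters were named from marker lists. No doublet caller was run. Nuclei with at least 4 UMIs from at least 2 markers of another broad class were left out as an alternative. These mixed nuclei were 9361 of the 66798 named nuclei (14.0%). They included 2656 of the 7698 astrocyte-like and 1065 of the 3357 microglia-like nuclei, so this alternative also rests on fewer nuclei. Counts were summed per mouse and type, and a type was fitted with at least 10 nuclei in at least 3 mice per group (VLMC without WT control 36). The main test was edgeR 4.0.16 (trimmed mean of M-values, filterByExpr, robust quasi-likelihood F test, 1 mean per group, all 16 mice, 8 contrasts), with DESeq2 1.42.0 as an alternative, in R 4.3.3. Differences are log2 fold changes, SEs were derived from the F statistic, and p-values were adjusted by Benjamini-Hochberg over all genes tested in a type and contrast. The members and gene lists were chosen with earlier results of these data known. The fits of astrocyte clusters 5 and 17 and of unnamed nuclei were added after seeing the data. The pathway genes named are those called in any type and contrast.

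Libraries of 1 group differed by more than sampling noise in every pair. On simulated counts for the 3xTg-AD alcohol and WT control groups in astrocyte-like nuclei, 71% of log2 changes of 1 and 99% of log2 changes of 2 were recovered over 9908 genes, and for microglia-like nuclei 49.0% and 94.5% over 6054 genes. Intervals of shares cover counting error only. The labels do not say whether mice of a group shared a litter or an exposure batch. Gene positions are from GENCODE M21 on GRCm38.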

Additional observations from a re-analysis of the deposited data

Results flagged for a closer look

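Levels of 6 of the 7 genes in the type where each was highest, and of C4b over all nuclei, were searched in 28 groups of 4 mice for a mouse far from the other 3 of its group by Dixon's criterion for 4 values. Chance alone gives about 1 such mouse in 20 groups, and 3 were found. C4b over all nuclei was 8.17 CPM in WT control 36 and 3.65 to 3.98 CPM in the other WT controls, a gap of 0.928 of the range. The oligodendrocyte-like nuclei of this mouse held 18 C4b UMIs, and those of the other WT controls 0. C1qc in microglia-like nuclei was 426 CPM in 3xTg-AD control 14 and 274 to 296 CPM in the other mice of that group (0.858 of the range). Csmd1 in L2/3 IT-like neurons was 430 CPM in 3xTg-AD control 12, one of the 3 mice with high Gm42418, and 289 to 313 CPM in the others of its group (0.830 of the range).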

How the results depend on the processing

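No paired analysis was possible because the replicate numbers are mouse numbers and no number occurs in more than 1 group. No alternative turned the direction of a single fold change among 1216 values recomputed, of which 1002 kept their side of the threshold, 197 lost a call and 17 gained one. Most of these values belong to pairs of gene and type that the main fit had called. For such pairs a turn of direction was unlikely from the start, so its absence says little. Naming nuclei by marker counts left 27 pairs of gene and type to test, in place of 49, and gave 1 call of the 7 genes for 3xTg-AD alcohol versus WT control, 1 versus 3xTg-AD control, 0 versus WT alcohol, 0 for genotype averaged over alcohol and 1 for alcohol averaged over genotype, in place of 10, 4, 1, 3 and 5. With ribosomal RNA-associated UMIs (Gm42418 and similar transcripts) as a covariate, 3xTg-AD alcohol had 7 calls versus 3xTg-AD control and 2 versus WT alcohol, and averaged alcohol 8. Without nuclei that carried markers of another class, calls were 2 versus 3xTg-AD control and 1 for averaged alcohol. With no filter on low counts, which left 109 pairs, they were 5 versus WT alcohol and 8 for averaged genotype. Without the 3 mice with most Gm42418 they were 3 versus WT alcohol and 8 for averaged alcohol, and DESeq2 gave 2 versus WT alcohol. The cause was not tested. Leaving out 1 mouse gave 5 to 11 calls versus WT control (lowest without mice 33 and 34), 0 to 5 versus 3xTg-AD control (0 to 2 without any 1 of mice 33, 34, 12, 13, 14 and 21), 0 to 2 versus WT alcohol (0 without any 1 of mice 31, 33, 34, 6, 7, 17 and 18, and 2 without mouse 36), 1 to 5 for averaged genotype (1 without any 1 of mice 34, 13, 6 and 28, and 5 without mouse 4), 2 to 6 for averaged alcohol (2 or 3 without any 1 of mice 33, 34, 12, 13, 21, 17, 18, 27 and 28), and 8 to 14 over all nuclei and all comparisons, where every mouse together gave 13 (8 without mouse 33). Over all nuclei 4.06%, 0.483% and 0.942% of all genes were called in 3xTg-AD alcohol mice versus WT controls, 3xTg-AD controls and WT alcohol mice. The share was not worked out for the other comparisons, so the count of 13 is not a result about the 7 genes. In the types, the 3 comparisons with 0 calls kept 0 in each alternative and with each mouse left out. The rise of C4b in astrocyte-like nuclei for averaged alcohol was lost with marker-count naming, with the covariate, without mixed nuclei and without the 3 mice (0.85 to 1.01, edgeR adjusted p 0.129 to 0.21). C1qb in microglia-like nuclei was lost for averaged alcohol with marker-count naming (0.63, edgeR adjusted p 0.0669) and without mixed nuclei (0.55, adjusted p 0.095). Versus 3xTg-AD controls, marker-count naming ended the calls of C4b in astrocyte-like nuclei (1.48, edgeR adjusted p 0.379) and C1qa in microglia-like nuclei (0.89, adjusted p 0.124), as did leaving out mixed nuclei for C4b (1.62, adjusted p 0.0582) and the 3 mice for C1qa (0.77, adjusted p 0.0504). Versus WT controls C1qb in microglia-like nuclei was lost with marker-count naming, the covariate and without the 3 mice (0.72 to 0.92, edgeR adjusted p 0.0506 to 0.0946). The share of microglia-like nuclei with a C1qc UMI was 29.1%, and 21.8% after thinning. Depth limits C3 and the C4b levels outside astrocyte-like nuclei, which rest on few UMIs per mouse.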
